A study of Homo sapiens with 4 samples.

Results

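The genes described here are 10 outputs and feedback inhibitors of the ERK cascade, namely the phosphatases DUSP4, DUSP5 and DUSP6, the Sprouty genes SPRY1, SPRY2 and SPRY4, the SPRED genes SPRED1 and SPRED2, and the transcription factors ETV4 and ETV5. They were chosen by name as known ERK targets or brakes. The rule uses no measured value, but the choice was made with earlier results of these data known. Each gene was found by its symbol in the RefSeq annotation, and the transcript with the highest mean over all libraries stood for it. All 10 were present among the 19475 symbols, with 26 of the 50078 transcripts listed.

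The data are RNA-seq of SKOV3 cells, a human ovarian cancer line in long use. They hold 2 libraries of cells on a tissue culture plate (TCP), placed at day 0, and 2 libraries of cells cultured for 8 days on a plate coated with polymer X, where the cells grow as spheroids. Substrate and time in culture changed together, so their parts cannot be told apart, and neither can that of the medium, since the methods keep the line in fetal bovine serum and the spheroids in serum replacement while the labels state serum replacement for every library. No genetic change was made, the line was the same in both groups, and the labels do not say whether the replicates were separate cultures. The study's methods speak of independent replicates for its experiments in general, more than the 2 libraries a group held here, so the p-values measure only the spread between these libraries, which may be technical.

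Expression is given as FPKM, the sequenced tags per transcript scaled to its length and to the depth of the library, so levels of different genes can be compared. The libraries rested on 38403000 and 44916000 tags for TCP and on 40029000 and 40684000 for polymer X, as read from the steps between the smallest values. Genes reaching 1 FPKM in 2 or more libraries entered the test, limma on log2(FPKM + 1) with Benjamini-Hochberg adjustment, and a gene was called higher or lower where the adjusted p was under 0.05 and the log2 fold change was 1 or more in size. Of 11 epithelial markers, 7 were tested, with ERBB2, PAX8 and EPCAM called higher on polymer X and none called lower. EPCAM had 11 and 8 tags on TCP and 95 and 92 on polymer X, and entered the test only through polymer X. PAX8 had 48.8 and 50.5 FPKM on TCP and 102 and 108 on polymer X, while KRT8 had 262 and 269 against 146 and 143, a log2 fold change of -0.87 under the minimum, and KRT7 and KRT18 were likewise lower without overlap at -0.76 and -0.44. CDH1, KRT19, WT1 and MUC16 lay under 1 FPKM in every library. The 5 leukocyte markers summed to 0.213 and 0.113 FPKM on TCP and 0.930 and 0.987 on polymer X, where PTPRC went from 1 and 0 tags to 92 and 106, with CD3E at 0 in all libraries. The 5 endothelial markers summed to 0.509 and 0.478 FPKM against 0.855 and 0.628 and moved both ways. PECAM1 went from 0 tags in both TCP libraries to 102 and 83, while KDR went from 106 and 114 tags to 50 and 26. CDH5, VWF and TEK had at most 9 tags in any library. None of these leukocyte and endothelial genes reached the level for testing. Of the 5 fibroblast markers, COL1A2 and DCN were called higher. DCN had 4 and 0 tags on TCP and 1203 and 1044 on polymer X, and likewise entered the test only through polymer X. COL1A1 had 8.21 and 8.48 FPKM on TCP and 3.81 and 3.77 on polymer X (-0.96 on the log2 scale, under the minimum). The list summed to 16.9 and 17.5 FPKM on TCP and to 57.1 and 52.2 on polymer X, with PDGFRB and THY1 under 0.2 throughout. All 5 proliferation markers were called lower on polymer X, with sums of 427 and 421 against 102 and 99.9, and the part of these shifts in the results below was not tested.

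ERK is the last kinase of a relay that runs from receptor tyrosine kinases through RAS, RAF and MEK. Active ERK enters the nucleus and turns on genes, and some of their products shut the relay down again. Dual-specificity phosphatases remove the phosphates from ERK, Sprouty and SPRED proteins act upstream at the level of receptors, RAS and RAF, and the PEA3 factors ETV4 and ETV5 carry the signal on to further genes. The transcript levels of these genes are widely used as a readout of ERK pathway output.

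On polymer X, 6 of the 10 genes were called higher and none lower at an adjusted p under 0.05 and a log2 fold change of 1 or more in size. These were DUSP6, ETV4, ETV5, SPRY1, SPRY2 and SPRY4. Over all 11964 genes tested, 10.7% were called higher and 9.45% lower by the same criteria. SPRY1 and SPRY4 passed the filter on low values only through polymer X, since both lay under 1 FPKM on TCP. The other 8 genes passed it in both groups.

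Without the minimum on the fold change, 9 of the 10 had an adjusted p under 0.05 on the higher side and 1, DUSP5, on the lower side. This criterion was met by 37.4% of all genes tested on the higher side and by 43.6% on the lower side. The polymer X libraries lay wholly above the TCP libraries for 9 of the genes and wholly below for DUSP5, against 41.9% and 48.4% of all genes tested. The median log2 fold change was 1.18 over the 10 genes and -0.06 over all genes tested, whose quartiles were -0.54 and 0.46. Summed FPKM of the 10 genes was 41.6 and 43.7 on TCP and 90.8 and 87.9 on polymer X. With 2 libraries a group, the smallest two-sided p that an exact permutation test allows is 0.333, and the adjusted p-values therefore depend on the pooling of variance over genes in limma.

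**Figure D1:**
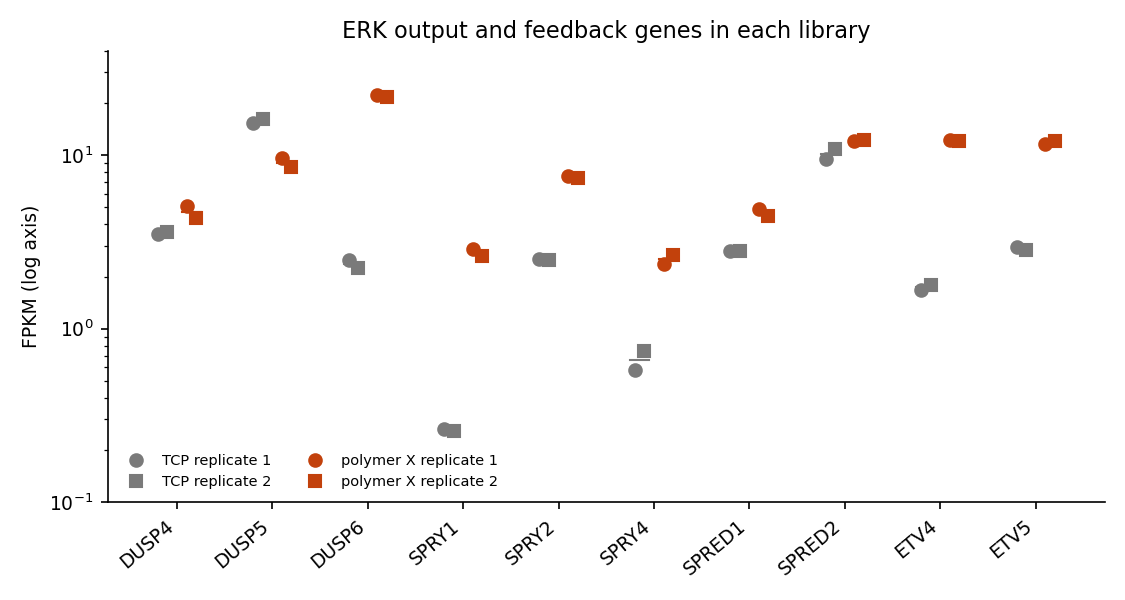
FPKM of the 10 genes (log axis) in each of the 4 libraries, with TCP in grey, polymer X in orange, circles for replicate 1, squares for replicate 2 and a line at each group mean. The polymer X points sit above the TCP points for every gene except DUSP5, and the gap is widest for SPRY1, DUSP6 and ETV4.

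Among the phosphatases, DUSP6, also called MKP-3, is a cytoplasmic enzyme that acts selectively on ERK. It is encoded on the minus strand at chr12:89741602-89746636 (hg19, as are all gene positions here). Its FPKM was 2.50 and 2.25 on TCP and 22.3 and 21.6 on polymer X. Both polymer X libraries were far above both TCP libraries, and the difference rested on 325 and 343 tags against 3032 and 2974. The mean rose from 2.37 ± 0.172 to 22.0 ± 0.552 (SD, n = 2), a ratio of 9.25. On the log2(FPKM + 1) scale the change was 2.77 with a standard error of 0.07 (limma, adjusted p = 2.3e-09), which placed DUSP6 at rank 98 of the 11964 genes tested. No other gene of the 10 changed as much on this scale.

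DUSP5 is a nuclear phosphatase that is also selective for ERK, encoded on the plus strand at chr10:112257625-112271302. It had the opposite order, with 15.3 and 16.1 FPKM on TCP and 9.62 and 8.51 on polymer X. Both TCP libraries were above both polymer X libraries, with means of 15.7 ± 0.549 and 9.06 ± 0.785 (SD, n = 2). The log2 fold change was -0.73 with a standard error of 0.07 (limma, adjusted p = 9.5e-06), short of the minimum of 1. DUSP4, or MKP-2, is a nuclear phosphatase that acts on ERK and on other MAP kinases, and its gene lies at chr8:29190579-29208267 on the minus strand. Its values were 3.52 and 3.61 FPKM on TCP and 5.07 and 4.37 on polymer X. The polymer X libraries were higher without overlap but differed from each other more than the TCP libraries did, and the log2 fold change of 0.32 with a standard error of 0.08 (limma, adjusted p = 0.0047) was also under the minimum.

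The ERK phosphatases thus differed in direction, and the order of DUSP5 and DUSP6 was exchanged. On TCP the level of DUSP5 was the highest of the 10 genes and that of DUSP6, for the transcripts used, the seventh, close under SPRY2. On polymer X, DUSP6 was the highest and DUSP5 the fifth. The 3 phosphatases together had 21.4 and 22.0 FPKM on TCP and 37.0 and 34.4 on polymer X.

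The 250 bases before each RefSeq start (GRCh38.p14) were searched on both strands for short motifs. The motifs were the ETS cores GGAAGT and CCGGAA, which overlap in 4 letters where they run together. The AP-1 site TGACTCA, the CRE site TGACGTCA and the capicua octamer were searched for as well. Capicua is a repressor that ERK signaling removes from its targets. It was searched as TGAATGAA, and, in a step added after the values had been seen, as any of TGAATGAA, TGAATGGA, TCAATGAA and TCAATGGA, the added forms thus including the first. The table held 10 windows for 6 of the genes, namely DUSP6, SPRED1, SPRED2, SPRY1, SPRY2 and SPRY4, and none for DUSP4, DUSP5, ETV4 or ETV5. The DUSP6 window had 1 of the added octamers, TCAATGGA on the strand opposite to the gene, 24 bases before the start. That window overlaps 1 annotated exon of DUSP6, and whether the match lies in the exon was not looked at. Any of the 4 forms was found in 1 of the 10 windows and in 3.18% of 35116 promoters. The stretch around the DUSP6 match is shown because DUSP6 had the largest change of the 10 genes on the log2(FPKM + 1) scale. It is given on the strand of the gene and with the match in capitals.
DUSP6, chr12:89352507-89352536: cggagaatgtaTCCATTGAgacgctcgctg

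The Sprouty genes all rose. SPRY2, encoded on the minus strand at chr13:80910111-80915250, is a membrane-associated inhibitor of receptor signaling to RAS and is itself induced by ERK. It gave 2.52 and 2.50 FPKM on TCP and 7.61 and 7.40 on polymer X. The replicates lay close together in both groups and the groups did not overlap. The mean rose from 2.51 ± 0.0163 to 7.51 ± 0.148 (SD, n = 2), a ratio of 2.99, with a log2 fold change of 1.28 and a standard error of 0.07 (limma, adjusted p = 1.8e-07).

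SPRY1, encoded on the plus strand at chr4:124319541-124324915, is a related inhibitor with the same cysteine-rich domain. It was the least expressed of the 10 genes on TCP, at 0.266 and 0.256 FPKM, and stood at 2.88 and 2.64 on polymer X. These values came from 24 and 27 tags on TCP and from 271 and 252 on polymer X, with no overlap. Its ratio of means, 10.6, was the largest of the 10 genes, while its log2 fold change on the log2(FPKM + 1) scale was 1.58 with a standard error of 0.08 (limma, adjusted p = 1.5e-07), because the added 1 weighs on low values. With 0.1 added in place of 1 the log2 fold change was 2.99, and with the transcripts of each gene summed it was 2.49.

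SPRY4, on the minus strand at chr5:141689992-141704620, inhibits RAF activation downstream of several receptors. It had 0.575 and 0.749 FPKM on TCP and 2.37 and 2.64 on polymer X, from 109 and 166 tags against 469 and 531. The groups did not overlap, although the TCP replicates differed from each other more, in proportion, than those of any other gene of the 10. The ratio of means was 3.79 and the log2 fold change 1.08 with a standard error of 0.09 (limma, adjusted p = 3.3e-06), close to the minimum of 1. Quantile normalization lowered it to 0.70, which ended the call, and with 0.1 added in place of 1 it was 1.78.

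SPRY3, the remaining Sprouty gene, had at most 0.023 FPKM in any library and was not tested. The summed FPKM of the 4 Sprouty genes went from 3.45 ± 0.0905 to 12.8 ± 0.132 (SD, n = 2), a ratio of 3.70. Within that sum SPRY2 made up 72.8% ± 2.38 on TCP and 58.7% ± 0.552 on polymer X, and SPRY1 7.57% ± 0.403 and 21.6% ± 1.13, while SPRY4 held 19.1% ± 3.06 and 19.6% ± 1.70. SPRY2 thus stayed the main Sprouty transcript in every library.

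The promoter windows of the Sprouty genes with a match are shown for comparison with that of DUSP6. The ETS core CCGGAA was found in 2 of the 10 windows, against 14.5% of all promoters. These were 1 of the SPRY1 windows, 67 bases before the start, and the most upstream of the SPRY2 windows, 142 bases before the start. The SPRY1 window with the match overlaps 2 annotated exons of SPRY1. GGAAGT was found in 1 of the 10 windows, against 19.5% of all promoters. This was another SPRY2 window, with the match on the opposite strand, 6 bases before the start. No window of these genes held TGACTCA, TGACGTCA or TGAATGAA, which were present in 4.2%, 1.65% and 1.4% of all promoters. The windows of SPRY4, SPRED1 and SPRED2 had no match to any motif searched. CCGGAA was the only motif matched in more than 1 gene, so the search found none common to these genes. Sequences run 5′ to 3′ on the strand of the gene, capitals mark the match, and the upstream SPRY2 window, which overlaps no annotated exon of the gene and has 70.4% G and C against a median of 58.0% over all promoters, is given whole.
SPRY1, chr4:123398307-123398336: tgccctccgcagCCGGAAgggggccgcggg
SPRY2, chr13:80340109-80340126: cgggggcaggagACTTCC
SPRY2, chr13:80341127-80341376: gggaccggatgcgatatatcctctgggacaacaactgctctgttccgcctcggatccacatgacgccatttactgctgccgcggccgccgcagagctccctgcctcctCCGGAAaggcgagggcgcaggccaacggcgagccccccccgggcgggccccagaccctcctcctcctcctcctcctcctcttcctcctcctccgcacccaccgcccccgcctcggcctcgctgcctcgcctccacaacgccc

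The SPRED genes had the smallest differences on the higher side together with DUSP4. SPRED1, on the plus strand at chr15:38545052-38649450, encodes the protein that brings neurofibromin, a RAS GTPase-activating protein, to the membrane. It had 2.82 and 2.80 FPKM on TCP and 4.92 and 4.47 on polymer X, without overlap. Its log2 fold change was 0.58 with a standard error of 0.08 (limma, adjusted p = 7.0e-05), under the minimum of 1. SPRED2, a paralog with a like domain structure on the minus strand at chr2:65537985-65659656, had 9.47 and 10.8 FPKM on TCP and 12.1 and 12.2 on polymer X. The polymer X libraries were above both TCP libraries by about as much as the TCP replicates differed from each other, and the log2 fold change was 0.24 with a standard error of 0.07 (limma, adjusted p = 0.012). Without TCP replicate 1 it was 0.15 with an adjusted p of 0.15, and without polymer X replicate 2 the adjusted p was 0.054.

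SPRED3, the remaining paralog, rose from 0.719 and 0.725 FPKM to 4.15 and 4.29 (log2 fold change 1.60, standard error 0.08, limma, adjusted p = 8.4e-08). This paralog entered the test only through polymer X. The sum over the SPRED genes went from 13.7 ± 0.951 to 21.1 ± 0.140 FPKM (SD, n = 2). The share of SPRED3 in it was 5.29% ± 0.337 on TCP and 20.0% ± 0.593 on polymer X, and that of SPRED2 74.1% ± 1.86 and 57.7% ± 0.753. SPRED1 held 20.6% ± 1.52 and 22.3% ± 1.35, which differed by about the spread between replicates.

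On the log2(FPKM + 1) scale the PEA3 factors had the highest log2 fold changes of the 10 genes after DUSP6. With 0.1 added in place of 1, SPRY1 at 2.99 lay above ETV4 at 2.74 and ETV5 at 2.00. ETV4, on the minus strand at chr17:41605211-41623305, is an ETS transcription factor that ERK signaling both induces and activates. It had 1.67 and 1.79 FPKM on TCP and 12.2 and 12.0 on polymer X, from 137 and 172 tags against 1041 and 1046. The groups were far apart and the replicates close, and the mean rose from 1.73 ± 0.0863 to 12.1 ± 0.0983 (SD, n = 2), a ratio of 6.99. The log2 fold change was 2.26 with a standard error of 0.07 (limma, adjusted p = 6.4e-09), rank 197 of the genes tested. The ETV4 interval is overlapped by a DHX8 transcript on the opposite strand, and tags were counted without strand, so some could belong to either gene. DHX8 itself had 14.5 and 14.8 FPKM on TCP and 8.24 and 7.20 on polymer X, the opposite order to ETV4.

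ETV5, on the minus strand at chr3:185764106-185826901, is a close relative of ETV4 and answers to the same signal. It had 2.96 and 2.83 FPKM on TCP and 11.7 and 12.0 on polymer X. Again the groups did not overlap, with means of 2.90 ± 0.0962 and 11.9 ± 0.250 (SD, n = 2) and a ratio of 4.10. The log2 fold change was 1.72 with a standard error of 0.07 (limma, adjusted p = 2.4e-08).

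ETV1 completes the PEA3 group and is named here after its values were seen. It was nearly silent on TCP, with 7 and 1 tags, and had 375 and 325 tags on polymer X, or 1.51 and 1.29 FPKM (log2 fold change 1.24, standard error 0.09, limma, adjusted p = 1.3e-06). ETV1 passed the filter on low values only through polymer X. The summed FPKM of the 3 PEA3 genes was 4.64 ± 0.0276 on TCP and 25.4 ± 0.00566 on polymer X (SD, n = 2), a ratio of 5.46. ETV4 made up 37.3% ± 2.08 of it on TCP and 47.8% ± 0.377 on polymer X, and ETV5 62.3% ± 1.70 and 46.7% ± 0.994, so that the lead of ETV5 over ETV4 on TCP was gone on polymer X.

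**Figure D2:**
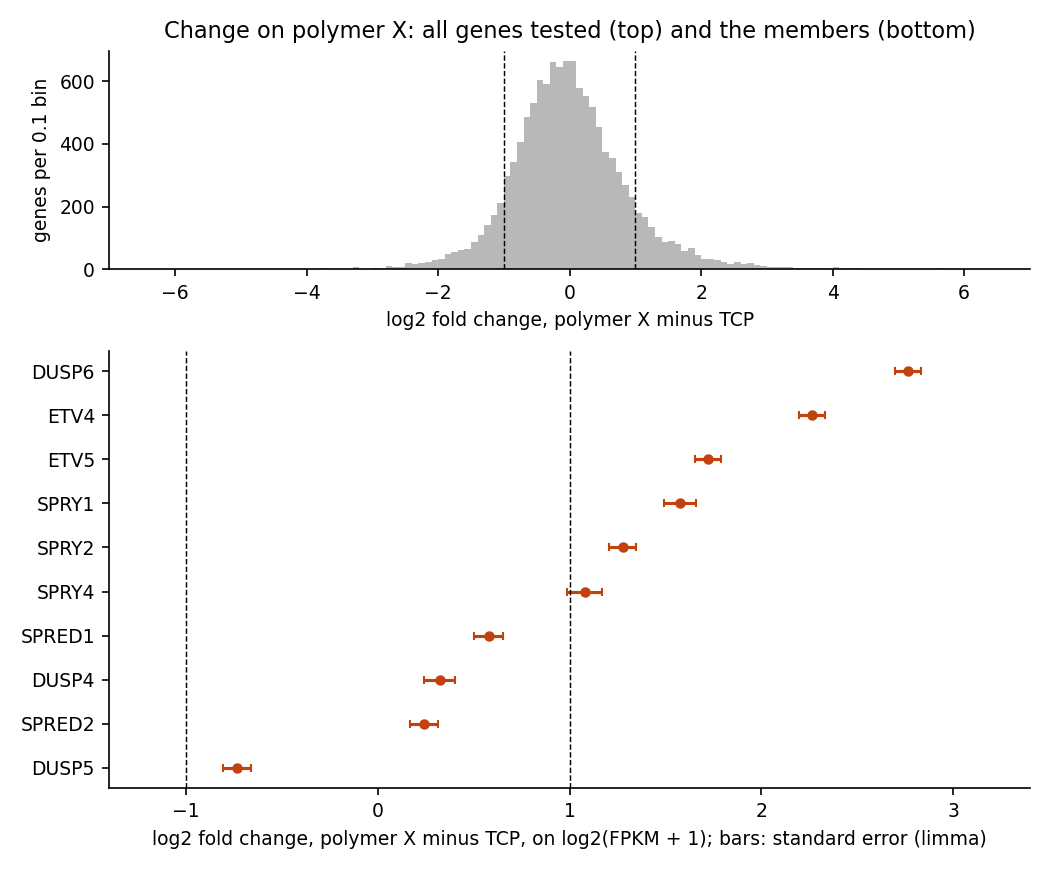
Log2 fold change of polymer X minus TCP on log2(FPKM + 1) for all 11964 genes tested (top, histogram in bins of 0.1) and for the 10 genes (bottom, points with the standard error from limma, on a narrower axis), with dashed lines at -1 and 1. DUSP6 at 2.77 and ETV4 at 2.26 lie in the right tail of the histogram, DUSP4 at 0.32 and SPRED2 at 0.24 lie within its upper quartile bound of 0.46, and DUSP5 at -0.73 is the only point left of 0.

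The order of the levels differed between the groups. On TCP it ran from DUSP5 and SPRED2 through DUSP4, ETV5, SPRED1, SPRY2, DUSP6 and ETV4 to SPRY4 and SPRY1, with the replicates of no neighbours overlapping. Some gaps were small, such as 2.5 FPKM in the lower SPRY2 library against 2.496 in the higher DUSP6 library. The order holds for the transcripts used, since another SPRY2 transcript had a TCP mean of 2.16, under that of DUSP6 at 2.37. On polymer X it ran from DUSP6 through SPRED2, ETV4, ETV5, DUSP5, SPRY2, DUSP4, SPRED1 and SPRY1 to SPRY4, where SPRED2 and ETV4, DUSP4 and SPRED1, and SPRY1 and SPRY4 overlapped and could not be ordered. ETV4 and ETV5 were barely apart, at 12.048 against 12.034 FPKM in their nearest libraries. Another ETV4 transcript had a polymer X mean of 11.3, under that of ETV5 at 11.9. The range between the highest and the lowest gene was 15.7 to 0.261 FPKM on TCP and 22.0 to 2.51 on polymer X. In bulk RNA a gene expressed by more cells and a gene expressed at a higher level per cell cannot be told apart.

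The transcripts of each gene gave like values, although they share most of their tags. Log2 fold changes were 2.76 and 2.77 for the 2 transcripts of DUSP6, 2.19 to 2.29 for the 5 of ETV4, 1.49 to 1.58 for the 4 of SPRY1, 1.26 to 1.31 for the 4 of SPRY2 and 1.04 to 1.08 for the 4 of SPRY4. The 2 transcripts of DUSP4 gave 0.32 and 0.34 and those of SPRED2 0.24 and 0.29, while DUSP5, SPRED1 and ETV5 had 1 transcript each. No choice of transcript moved a gene across the minimum of 1.

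**Figure D3:**
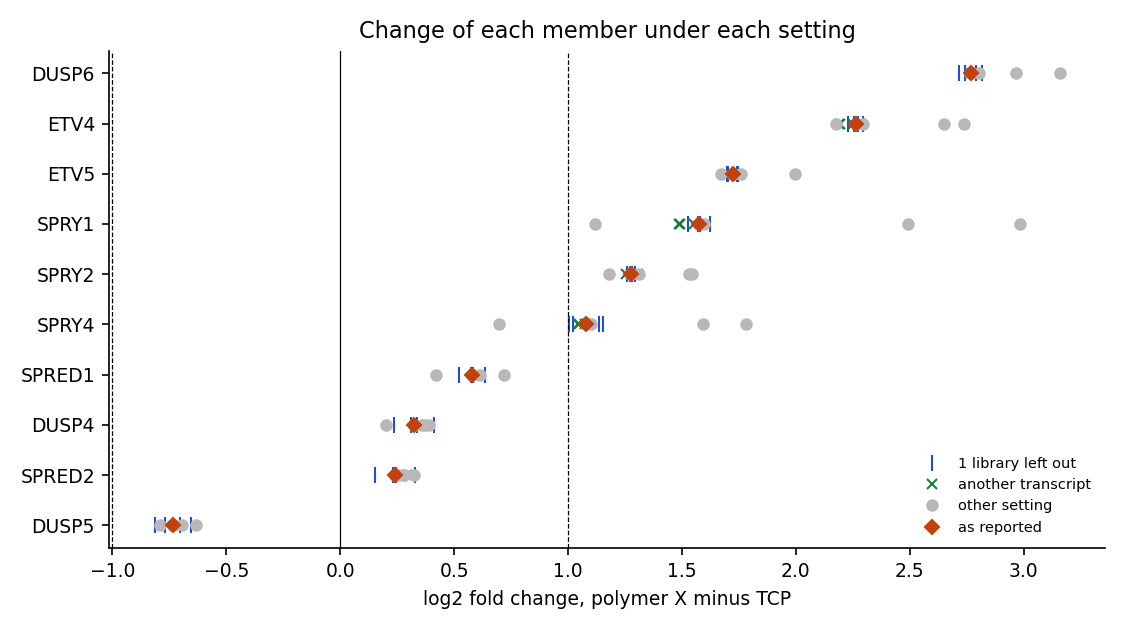
Log2 fold change of polymer X minus TCP for each gene as reported (diamonds), with 1 library left out (vertical ticks), with another transcript (crosses) and under the other settings tried (grey circles), with dashed lines at -1 and 1. No gene changes sign, the point of SPRY4 at 0.70 under quantile normalization is the only one to cross the line, and the low SPRY1 and SPRY4 levels give the widest spread.

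The other MAP kinase phosphatases were given the same test. Of 7 listed, 6 were tested, 1 was called lower and none higher, with 3 of the 6 on each side at an adjusted p under 0.05 without the minimum on the fold change, and a median log2 fold change of -0.27. DUSP1, or MKP-1, the nuclear stress-induced phosphatase, fell from 279 and 272 FPKM to 83.7 and 92.5 (log2 fold change -1.64, standard error 0.06, limma, adjusted p = 2.7e-08). DUSP10, named here after its values were seen, was just short of the minimum at -0.98, and the list had 2 genes called lower with 0.1 added in place of 1.

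Over all 10 MAP kinase phosphatases the summed FPKM went from 326 ± 6.56 on TCP to 144 ± 3.55 on polymer X (SD, n = 2), a ratio of 0.441. DUSP1 made up 84.6% ± 0.0814 of the sum on TCP and 61.2% ± 2.82 on polymer X. DUSP6 went from 0.729% ± 0.0381 to 15.3% ± 0.761, and DUSP5 from 4.83% ± 0.266 to 6.31% ± 0.702 although its own level was lower on polymer X. DUSP4 went from 1.10% ± 0.0403 to 3.29% ± 0.425. DUSP1 remained the most abundant of these transcripts in every library.

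**Figure D4:**
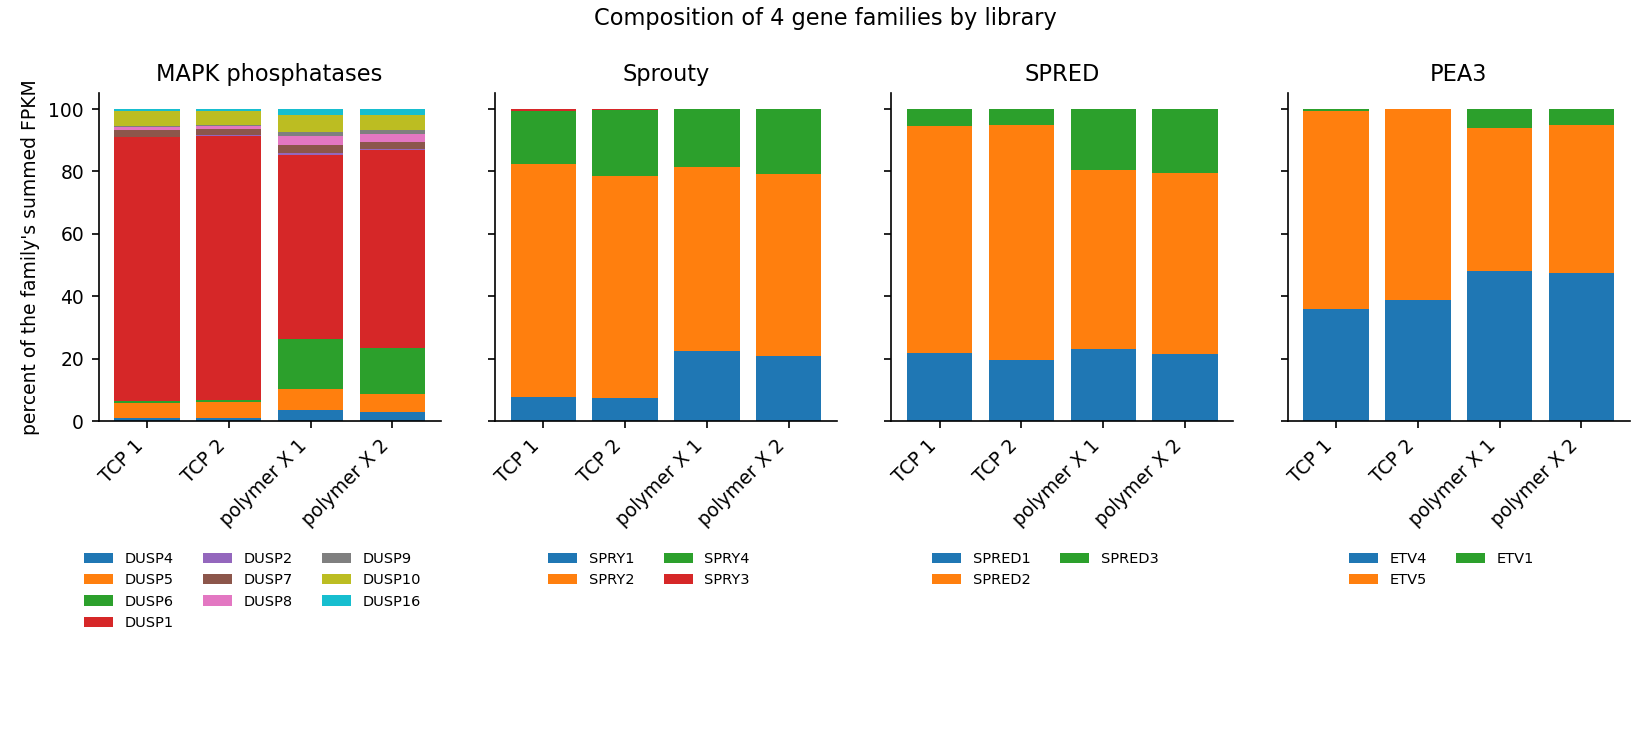
Percent of the summed FPKM of each family held by each gene in the 4 libraries, as stacked bars for the MAP kinase phosphatases, Sprouty, SPRED and PEA3 genes. DUSP6 widens from under 1% to about 15.3% of the phosphatase sum, SPRY1 to 21.6% of the Sprouty sum and SPRED3 to 20.0% of the SPRED sum on polymer X.

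Among 14 other inhibitors that act on receptors or RAS, 13 were tested, with 3 called higher and 1 lower and a median log2 fold change of 0.20. Besides SPRED3, ERRFI1 (MIG6), which binds and blocks EGFR family kinases, rose from 30.4 and 31.1 to 67.3 and 63.6 FPKM (log2 fold change 1.07, standard error 0.06, limma, adjusted p = 1.6e-07). RASA3, a RAS and RAP GTPase-activating protein, rose from 6.56 and 6.10 to 13.6 and 15.3 FPKM (1.08, standard error 0.07, limma, adjusted p = 9.2e-07), and without polymer X replicate 2 its log2 fold change was 1.00, just under the minimum. RASA1, which also inactivates RAS, fell from 16.6 and 16.5 to 6.40 and 6.64 FPKM (-1.22, standard error 0.06, limma, adjusted p = 1.1e-07).

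Other transcripts known to respond to ERK moved in both directions. Of 18 listed, 16 were tested, 5 were called higher and 4 lower, and the median log2 fold change was -0.22. TRIB2, a pseudokinase, rose from 1.75 and 1.72 to 12.4 and 13.0 FPKM (log2 fold change 2.33, standard error 0.07, limma, adjusted p = 5.6e-09). PHLDA1, a pleckstrin-homology protein, rose from 55.0 in both TCP libraries to 174 and 169 FPKM (1.62, standard error 0.05, limma, adjusted p = 9.7e-09), and EGR3, an immediate early zinc finger factor, from 0.673 and 0.724 to 4.04 and 4.96 FPKM (1.69, standard error 0.10, limma, adjusted p = 2.5e-07). EGR3 entered the test only through polymer X.

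On the lower side of the same list, MYC, the growth-promoting transcription factor, fell from 19.7 and 20.4 to 1.99 and 2.16 FPKM (log2 fold change -2.78, standard error 0.07, limma, adjusted p = 2.1e-09), a change about as large as that of DUSP6 in the other direction. FOSL1, an AP-1 subunit that is stabilized by ERK, fell from 98.3 and 105 to 24.8 and 25.0 FPKM (-1.99, standard error 0.06, limma, adjusted p = 4.7e-09). SPHK1, a lipid kinase, fell from 13.7 and 14.3 to 3.86 and 3.35 FPKM (-1.70, standard error 0.08, limma, adjusted p = 5.2e-08). CCND1, the cyclin D1 gene, named after its values were seen, had 41.0 and 41.5 FPKM on TCP and 32.5 and 32.1 on polymer X (-0.34, standard error 0.05, limma, adjusted p = 2.3e-04), which was under the minimum. Known ERK targets outside the 10 genes therefore split between the directions.

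The kinases and adaptors of the relay itself came next. All 23 listed genes of the RAS-RAF-MEK-ERK core were tested, with 1 called higher, 1 lower and a median log2 fold change of -0.19. PTPN11, the phosphatase SHP2 that couples receptors to RAS, fell from 63.1 and 63.2 to 27.7 and 24.8 FPKM (-1.24, standard error 0.06, limma, adjusted p = 1.4e-07), and the call was lost at -0.96 under quantile normalization. MKNK2, a kinase downstream of ERK that phosphorylates eIF4E, rose from 20.4 and 20.5 to 66.3 and 75.4 FPKM (1.74, standard error 0.07, limma, adjusted p = 2.5e-08). MAPK3, which encodes ERK1 and is named after its values were seen, had 22.6 and 23.9 FPKM on TCP and 39.1 and 40.1 on polymer X, with a log2 fold change of 0.74 under the minimum.

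Of 10 transcription factors that act on ERK targets, all were tested, 1 was called lower and none higher, and the median was 0.02. ETS2, an ETS factor that ERK phosphorylates, fell from 34.4 and 33.6 to 8.52 and 7.62 FPKM (-1.95, standard error 0.07, limma, adjusted p = 1.1e-08). CIC, the capicua gene, named after its values were seen, had 11.1 and 11.4 FPKM on TCP against 17.4 and 15.9 after polymer X culture, which was 0.53 on the log2 scale. The list gained 1 call on the higher side with 0.1 added in place of 1, with libraries scaled to a common median and with summed transcripts. ATXN1, which encodes a partner of capicua and was likewise named afterwards, was the gene nearest to the minimum in that direction at 0.98.

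At the top of the relay, 9 of 14 receptor tyrosine kinases were tested, with 1 called higher, 2 lower and a median of -0.12. ERBB2, the receptor for which this line is known to carry an amplification, rose from 198 and 206 to 913 and 860 FPKM (2.13, standard error 0.07, limma, adjusted p = 6.7e-09). AXL, the GAS6 receptor, fell from 76.3 and 80.9 to 7.06 and 7.81 FPKM (-3.24, standard error 0.07, limma, adjusted p = 9.2e-10), and EGFR from 24.8 and 25.9 to 6.80 and 7.69 FPKM (-1.68, standard error 0.07, limma, adjusted p = 3.6e-08).

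Of 11 receptor ligands, 6 were tested, 4 were called lower and none higher, with a median of -1.59 over the tested genes and of 0.03 over all 11, since 5 lay too low to test. NRG1, the neuregulin that binds ERBB3 and ERBB4, fell from 43.2 and 46.1 to 2.24 and 2.39 FPKM (-3.78, standard error 0.06, limma, adjusted p = 3.5e-10). FGF2 fell from 39.0 and 38.3 to 7.96 and 7.20 FPKM (-2.21, standard error 0.06, limma, adjusted p = 4.8e-09), and HBEGF, an EGFR ligand, from 10.7 and 10.4 to 2.28 and 2.09 FPKM (-1.85, standard error 0.07, limma, adjusted p = 2.0e-08).

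Over the 97 genes of these other lists together, 83 were tested, 10 were called higher and 14 lower, with a median log2 fold change of -0.04. Of the 83, 4 had under 1 FPKM in a TCP library, SPRED3, EGR3 and ETV1 among them, and passed the filter through polymer X. For the 10 output and feedback genes the corresponding counts were 6 and 0 with a median of 1.18. These are descriptions of named genes beside the shares of 10.7% and 9.45% of all genes tested, and no test was made between the lists.

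**Figure D5:**
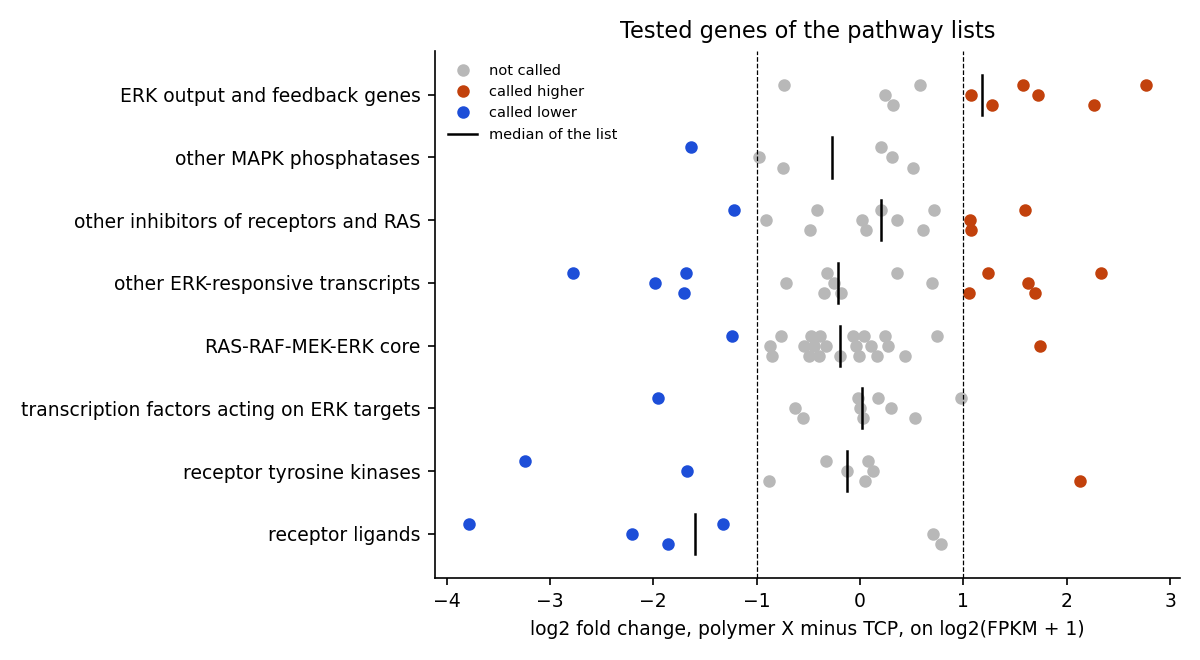
Log2 fold change of polymer X minus TCP on log2(FPKM + 1) for each tested gene of the 10 output and feedback genes and of 7 other lists of the pathway, with genes called higher in orange, lower in blue, others in grey, a black line at the median of each list and dashed lines at -1 and 1. The output and feedback genes have their median at 1.18, the receptor ligands at -1.59 and the other 6 lists between -0.27 and 0.20.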

How the data were processed

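Per the labels, mRNA libraries were prepared from SKOV3 cells with a directional kit. The authors deposited FPKM values per RefSeq transcript of hg19, counted with HOMER on exons of both strands, so strand was not used. The submitters' processing notes also name STAR 2.4.0 and DESeq, without their roles. Values times transcript length were whole numbers of tags within 0.1 for 100.0% of the low values, which gave the depths.

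The transcript with the highest mean FPKM stood for each symbol. The fit used limma 3.58.1 (R 4.3.3) with a mean-variance trend. Fold changes on log2(FPKM + 1) understate the change of low genes. The genes and lists were chosen with earlier results of these data known, and 1 gene was left out of the lists and is not reported here. By rule, the text names the 10 genes and, per other list, at most 3 called genes a direction, by size of change. The genes marked as named after their values were seen, SPRY3, DHX8 and the marker genes fall outside this rule. Replicates correlated at 0.998 on TCP and 0.997 on polymer X. On simulated tags, 200 of 200 changed genes and 0 of 11505 unchanged genes were called. Of the unchanged genes, 14 had an adjusted p under 0.05 (limma). The spread between replicates was preset, and far fewer genes changed than in the data. The changed genes, at a log2 fold change of 1.5 in size, were above the filter in every library. The simulation therefore checked the procedure and cannot speak for genes that are low on TCP. Promoters came from RefSeq (GRCh38.p14) and exons from GENCODE. Plots were drawn with matplotlib 3.10.9. The pseudocount, the filter, the scaling, the trend, the choice of transcript, the fold minimum and the set of libraries were varied, and a replicate block was tried.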

Additional observations from a re-analysis of the deposited data

How the results depend on the processing

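The 10 genes kept their direction in all 132 alternatives and their call in 131, the exception being SPRY4 under quantile normalization (0.70). The count called higher was 6 with any library left out and 2 with a fold minimum of 2 on the log2 scale, and 1 gene was lower with no minimum. Where the mean had to reach 5 FPKM, DUSP4, SPRED1, SPRY1 and SPRY4 were not tested. The median of the 10 genes was 1.66 with 0.1 added, 1.50 over the 6 genes that reach a mean of 5 FPKM, 0.91 under quantile normalization and 1.56 with summed transcripts, and it ran from 1.14 to 1.21 with a library left out. Over all genes, 702 that reach a mean of 5 FPKM were called higher, 4477 higher and 5212 lower with no minimum, and 281 and 150 at a minimum of 2. In the other pathway lists, 29 were higher and 39 lower with no minimum, and 2 and 4 at a minimum of 2. The 20 genes named by rule from these lists kept direction and call in 236 of 238 alternatives, the exceptions being RASA3 without polymer X replicate 2 and PTPN11 under quantile normalization. The cause of these shifts was not tested.

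Same-numbered libraries did not deviate together (r = 0.09), so the numbers were not taken as pairs. With the replicate block the counts were again 1285 higher and 1131 lower over all genes, 6 and 0 for the 10 genes and 10 and 14 for the other lists, with a median of 1.18.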
